A study of Mus musculus with 20 samples.

Results

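Transcripts of netrin-1 and its receptors were followed in mouse embryonic stem cells with Trim71 deleted or with the R595H change of TRIM71, a ubiquitin ligase that also binds RNA. The genes were taken by symbol from the deposited table: Ntn1, which encodes the secreted ligand netrin-1, and the receptor genes Neo1 and Unc5b. All 3 were present among 13283 gene symbols, and all 3 passed the filter on low values used below. Ntn1 was chosen as the gene with the strongest rise shared by the deletion and the homozygous change, so its rank and its values in those comparisons are a description and carry no test. Neo1 and Unc5b were chosen as receptors of that ligand. The series title asks how alike the transcriptomes of the deletion and of the homozygous change are, and names a state poised for neural differentiation.

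The 20 libraries were bulk mRNA libraries of male C57BL/6 embryonic stem cells, per the labels, all grown in medium with serum, LIF and the 2i inhibitors. In the conditional system, 4 Trim71-cond libraries, whose genotype is labelled Trimfl/fl (floxed Trim71), were set against 4 Trim71-KO libraries, and both groups carry the codes 1A, 2B, 3A and 3B. The labels name no clone in that system, no agent that removed the gene and no deleted exon, so its p-values reflect differences among libraries that may be technical. In the clonal system, 3 clones each were WT (C16, C7, C5), R595H/+ (C15, C21, C23) and R595H/R595H (C14, C20, C24), and each clone counted as 1 replicate. The titles of the clonal libraries carry 20/1 or 5/2, read here as dates whose step is not stated. C16, C15 and C14 have a library of each and the other 6 clones of 5/2 only. The day given for these libraries in another label field disagrees with the titles and was not used.

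Netrins are secreted relatives of laminin that guide axons and migrating cells. Netrin-1 can attract through DCC and its relative neogenin, the product of Neo1, and repels through receptors of the UNC5 family such as UNC5B. DCC, neogenin and UNC5 proteins are also known as dependence receptors, which can promote apoptosis when no ligand is bound. Neogenin in addition binds the repulsive guidance molecules, which link it to BMP signalling.

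Levels are the deposited values, on a log2 scale: library medians were 5.15 to 5.20, and depth is unknown. The deviations of the 1A libraries from their group means opposed each other across genes (r = -0.89), while the other codes gave r between -0.12 and 0.13, so values without code 1A are given beside the main results in Trim71-KO. Trim71 lay between 7.43 and 7.53 in Trim71-KO and between 8.93 and 9.01 in Trim71-cond. Its clone values were 10.00 to 10.18 in R595H/R595H, above the 9.48 to 9.53 of WT and the 9.55 to 9.63 of R595H/+. Because the deleted part of Trim71 is not known, the remaining signal cannot be assigned to intact or truncated transcript. All 8 pluripotency markers were in the table. Their summed level was 12.8 to 12.9 in Trim71-cond and 13.0 to 13.1 in Trim71-KO, so it moved with Ntn1 there. The markers themselves went both ways in mean level. Nanog (by 0.39, adjusted p 1.36e-05 by limma), Sox2 (9.36 to 9.59), Esrrb and Tdgf1 were higher in Trim71-KO. Zfp42 (7.55 to 7.35), Pou5f1, Utf1 and Dppa5a were lower. The summed level was 13.0 to 13.1 in WT and 12.9 to 13.1 in R595H/+ and in R595H/R595H. Its part in the Ntn1 difference was not tested. None of the 3 floor plate markers, the embryonic tissue best known for netrin-1, was among its symbols, nor were 4 of 6 feeder markers (Col1a1, Col1a2, Postn and Col3a1). The other 2, Thy1 and Pdgfrb, were low, between 1.79 and 2.71 in all libraries. The 2 neural progenitor markers present summed to 6.42 to 6.47 in Trim71-cond, 6.43 to 6.59 in Trim71-KO, 6.14 to 6.27 in WT and 5.91 to 6.33 in R595H/R595H. In bulk samples, a change in the share of cells that express a gene and a change in RNA per cell cannot be told apart.

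The ends of these transcripts carry letters that match small RNAs studied together with TRIM71. The let-7 family is known to repress Trim71 itself, and the miR-290 cluster, which includes miR-291a-3p, is a family typical of embryonic stem cells. The mature sequences, from RefSeq (GRCm38.p6), are printed with the seed, bases 2 to 8, in capitals. The longest annotated 3′ UTR of each gene (GENCODE vM21, GRCm38) was searched on the transcript strand for the complements of these seeds, CTACCTC and AGCACTT, which do not overlap each other. Sites are shown with the match in capitals.
mmu-let-7a-5p: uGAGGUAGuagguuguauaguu
Ntn1 let-7 match: acaagacatagCTACCTCacggcgctcct
mmu-miR-291a-3p: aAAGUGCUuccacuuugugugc
Neo1 miR-291a-3p match 1: tacgagaggacAGCACTTgagagcaggag
Neo1 miR-291a-3p match 2: ccatgaaccccAGCACTTgtgttacctca
Unc5b miR-291a-3p match: ggacctgagggAGCACTTagtgagcaagt

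The Ntn1 UTR, 3642 bases long, held 1 let-7 match, at bases 242 to 248 from its start, and no match of miR-291a-3p. Neo1 (2587 bases) held miR-291a-3p matches at bases 92 to 98 and 1994 to 2000, and Unc5b (2615 bases) held 1 at bases 1755 to 1761. Neither held the full let-7 letters CTACCTC, and shorter matches were not searched for. The stretch printed for Neo1 match 2 ends in tacctca, which holds all but the first of those letters. Of all 13056 UTRs searched, 11.9% held the let-7 letters and 18.3% the miR-291a-3p letters. Among UTRs within 20% of the length of Ntn1 the let-7 share was 21.3%, and the miR-291a-3p share was 27.3% for lengths like Neo1 and 27.9% for lengths like Unc5b. For the letters not found, the miR-291a-3p share was 36% for lengths like Ntn1. The let-7 share was 16.1% for lengths like Neo1 and 16.2% for lengths like Unc5b. Such matches are therefore common at these lengths, but most UTRs lack each of them. Which letters these genes hold or lack says nothing particular about ligand and receptors, and whether any match is bound was not measured.

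Ntn1 (ENSMUSG00000020902.12) is annotated on the minus strand at chr11:68209364-68400823 (GRCm38), with 3 transcripts, and the small annotated genes Mir6406 and Gm12305 lie within it. It stood higher in Trim71-KO and in R595H/R595H than in their controls. In Trim71-cond its level was 5.82 in library 1A, 5.62 in 2B, 5.93 in 3A and 5.75 in 3B. In Trim71-KO it was 7.08, 6.99, 7.14 and 7.18 in the same order. Every deleted library thus stood above every undeleted one, and the gap between the groups was wider than the spread within either.

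The group means were 7.10 ± 0.08 (SD, n = 4) in Trim71-KO and 5.78 ± 0.13 (SD, n = 4) in Trim71-cond. The difference was 1.32 ± 0.08 (SE) on the log2 scale, or 2.49-fold. Within the codes the difference was 1.26 (1A), 1.37 (2B), 1.21 (3A) and 1.43 (3B), so all 4 pairs had the same direction and about the same size, and the difference was 1.33 without code 1A. Over all genes tested, 10.6% had Trim71-KO libraries all above Trim71-cond libraries.

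The clones showed the same order. The WT clones C7 and C5 were at 5.70 and 5.53, and C16 was at 5.62 and 5.58 on its 2 dates. The R595H/R595H clones C20 and C24 were at 6.77 and 6.54, and C14 was at 6.60 and 6.65. All 4 homozygous libraries were above all 4 WT libraries, as clones were for 14.3% of the genes tested, and repeat libraries of a clone lay within 0.05 of each other, less than the spread between clones.

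Over clones the means were 6.64 ± 0.12 (SD, n = 3) in R595H/R595H and 5.61 ± 0.09 (SD, n = 3) in WT, a difference of 1.03 ± 0.11 (SE) or 2.05-fold. The difference in the deletion was larger than that in the homozygous clones by 0.28 on the log2 scale. The systems also differ in starting cells and handling, which cannot be told apart from genotype in that value. The Y-linked genes, whose mean varied among clones, were low in all R595H/R595H libraries (3.72 to 4.36) and also in WT C7 (4.08) and C16 (4.31 and 3.89), but not in WT C5 (6.00). With that mean as a covariate the Ntn1 difference was 1.05. Ntn1 was lower in WT C5 than in WT C7, but the R595H/+ clones had the reverse order. Their Y-linked mean was 5.61 and 5.22 in C15, 5.27 in C21 and 4.02 in C23, with Ntn1 at 5.90, 6.04 and 5.62. No R595H/R595H clone had a high Y-linked mean, so that mean and genotype cannot be fully told apart.

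The choice of Ntn1 rested on the smaller of its differences in the deletion and the homozygous change, among the 71 genes called higher in both. Next by that measure, just outside the choice, was Plxnb2, a receptor for semaphorins, with 0.86 in Trim71-KO and 0.79 in R595H/R595H. Abcd3, a peroxisomal transporter, followed with 0.75 and 0.86.

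**Figure D1:**
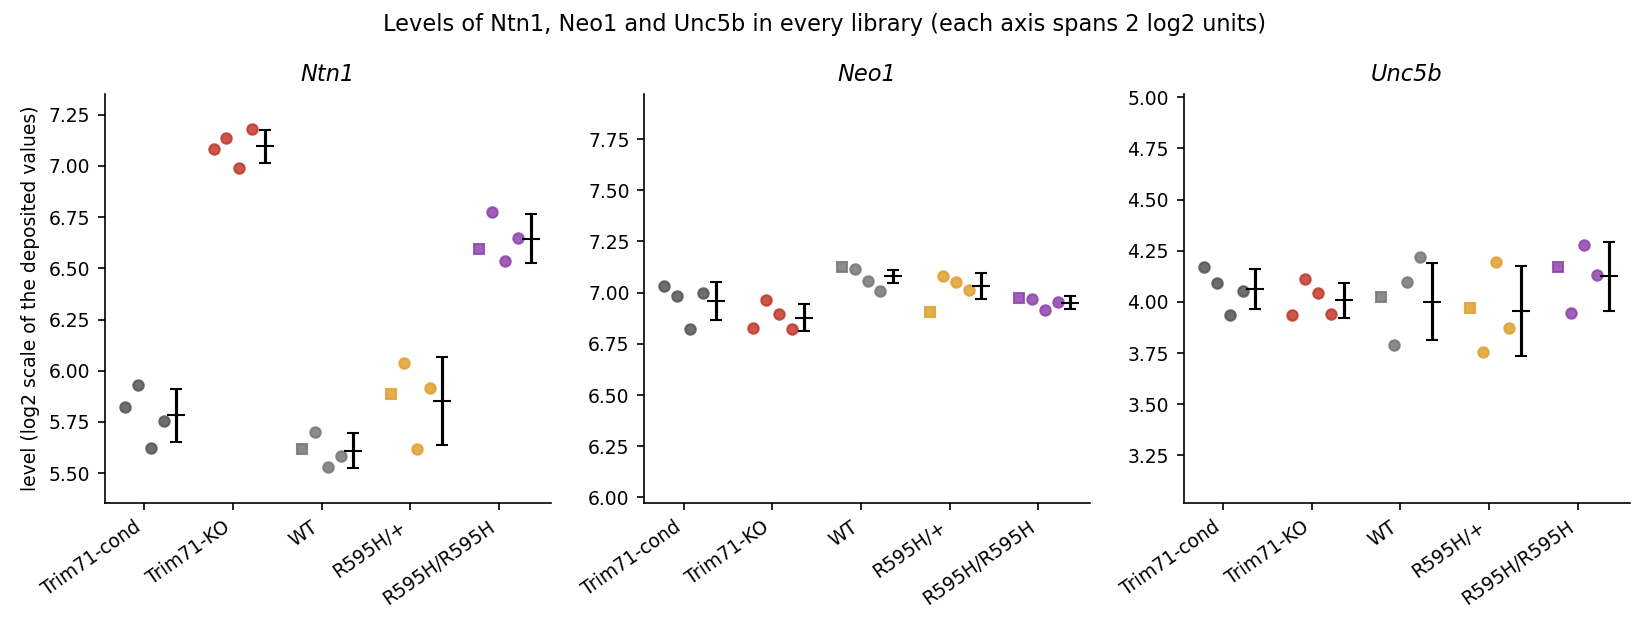
Level of Ntn1, Neo1 and Unc5b in each of the 20 libraries (deposited values, log2 scale), by genotype. Points are libraries (squares: date 20/1), and black bars show the mean and SD over 4 libraries or 3 clones. Ntn1 is 6.54 or more in every Trim71-KO and R595H/R595H library and at most 6.04 elsewhere, while the groups of Neo1 and Unc5b lie at about the same height.

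The heterozygous clones themselves were not used in the choice of Ntn1. They were tested against the WT clones that were used in it, so the test is not independent of that choice. Ntn1 was at 5.88 and 5.92 in C15 on its 2 dates, 6.04 in C21 and 5.62 in C23. C15 and C21 were above all WT libraries, and C23 lay within the WT range. The mean was 5.85 ± 0.22 (SD, n = 3), a difference from WT of 0.24 ± 0.11 (SE), which is 23.4% of the difference in R595H/R595H.

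In the fit across all genes (limma, Benjamini-Hochberg adjustment), the heterozygous difference of Ntn1 had an adjusted p of 0.641 and an unadjusted p of 0.0427, and 2 of 3 clones were above WT. No gene was called in this comparison (percent called: 0), and 734 genes, or 7.66%, had an unadjusted p under 0.05. The 95% interval for Ntn1 ran from 0.01 to 0.48. Without C21 the difference was 0.15, and without C23 it was 0.36. R595H/R595H clones exceeded R595H/+ clones by 0.79 on the log2 scale, or 1.73-fold, and the clones of these genotypes did not overlap, which held in the higher direction for 12.4% of genes.

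Ordered by mean level, Ntn1 ran from WT through Trim71-cond and R595H/+ to R595H/R595H and Trim71-KO. The ranges of the first 3 overlapped, and levels of the conditional system were not tested against those of the clones. R595H/R595H libraries stood above all of these, and Trim71-KO libraries above R595H/R595H. Set beside the Trim71 transcript, the highest Ntn1 levels occurred both where Trim71 was lowest (Trim71-KO) and where it was highest (R595H/R595H).

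**Figure D2:**
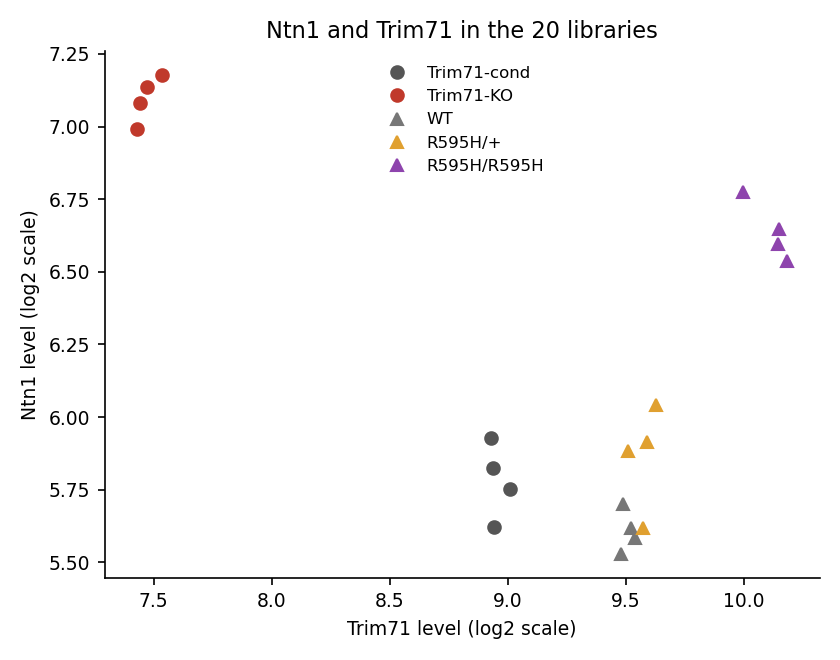
Ntn1 against Trim71 in the 20 libraries, as deposited (log2 scale). Circles are the conditional system and triangles the clones. Trim71-KO libraries have Trim71 near 7.47 and Ntn1 near 7.10, whereas R595H/R595H libraries have Trim71 near 10.11 and Ntn1 near 6.64, and the other genotypes lie lower in Ntn1.

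The receptors had no called difference. Neither Neo1 nor Unc5b was called in any of the 5 comparisons, and their differences were below 0.2 on the log2 scale in each. In Trim71-KO against Trim71-cond, 18.6% of 9580 genes were called at an adjusted p under 0.05, so 0 of 2 receptors called says nothing particular about them.

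Neo1 is on the minus strand at chr9:58874687-59036441 (GRCm38). An antisense gene, Gm47271, overlaps it in the annotation, and no source at hand states whether the counting used strand, so its reads cannot be told apart from those of Neo1. The level of Neo1 in Trim71-cond was 7.03 (1A), 6.82 (2B), 6.98 (3A) and 7.00 (3B). In Trim71-KO it was 6.83, 6.90, 6.96 and 6.82, and the groups overlapped. The difference was -0.08 ± 0.07 (SE), with an adjusted p of 0.454 by limma and a 95% interval from -0.23 to 0.07. Without code 1A it was -0.04 (adjusted p 0.821).

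In the clones Neo1 was slightly lower with the homozygous change. WT libraries were at 7.12 and 7.01 (C16), 7.12 (C7) and 7.06 (C5), and R595H/R595H libraries at 6.97 and 6.96 (C14), 6.97 (C20) and 6.91 (C24). No R595H/R595H clone reached a WT clone, an arrangement shared by 15.4% of the genes tested in the lower direction. The difference was -0.13 ± 0.07 (SE, adjusted p 0.323 by limma), with a 95% interval from -0.29 to 0.03, and 3.42% of 9587 genes were called in this comparison.

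R595H/+ clones, at 6.91 and 7.02 (C15), 7.08 (C21) and 7.05 (C23), overlapped both other genotypes in Neo1. Their difference from WT was -0.05 (adjusted p 0.923 by limma). R595H/R595H against R595H/+ gave -0.08 (adjusted p 0.587, 0.772% of genes called). The Neo1 effects in the deletion and the homozygous change differed by 0.05 ± 0.10 (SE, adjusted p 0.849, 1.42% of genes called), with an interval from -0.16 to 0.26.

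Unc5b is on the minus strand at chr10:60762593-60831581 (GRCm38) and was near the lower limit of the genes tested. Its level in Trim71-cond was 4.17 (1A), 3.93 (2B), 4.09 (3A) and 4.05 (3B). In Trim71-KO it was 3.94, 4.04, 4.11 and 3.94. These groups overlapped almost fully, and the difference was -0.05 ± 0.08 (SE), with an adjusted p of 0.689 by limma and an interval from -0.23 to 0.12. Without code 1A it was 0.00498 (adjusted p 0.982).

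Among the clones Unc5b varied, with an SD of 0.17 to 0.22 within genotypes. WT libraries were at 4.02 and 4.22 (C16), 3.79 (C7) and 4.10 (C5), and R595H/R595H libraries at 4.17 and 4.13 (C14), 3.95 (C20) and 4.28 (C24). R595H/+ libraries were at 3.97 and 3.87 (C15), 3.76 (C21) and 4.19 (C23). All 3 genotypes overlapped, and repeat libraries of C16 differed by 0.20, against an SD of 0.19 between WT clones.

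The Unc5b difference was 0.12 ± 0.12 (SE, adjusted p 0.607 by limma) for R595H/R595H against WT, with an interval from -0.14 to 0.39. Single clones moved that value, from 0.0158 without WT C7 and 0.0462 without R595H/R595H C24 to 0.213 without R595H/R595H C20. The Unc5b difference was -0.05 (adjusted p 0.963) for R595H/+ against WT and 0.17 (adjusted p 0.493) for R595H/R595H against R595H/+, the latter from 0.0686 without R595H/+ C21 to 0.286 without R595H/+ C23. The effects in the deletion and the homozygous change differed by -0.18 ± 0.15 (SE, adjusted p 0.56), with an interval from -0.48 to 0.12. Changes of Unc5b within these bounds could not be detected.

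**Figure D3:**
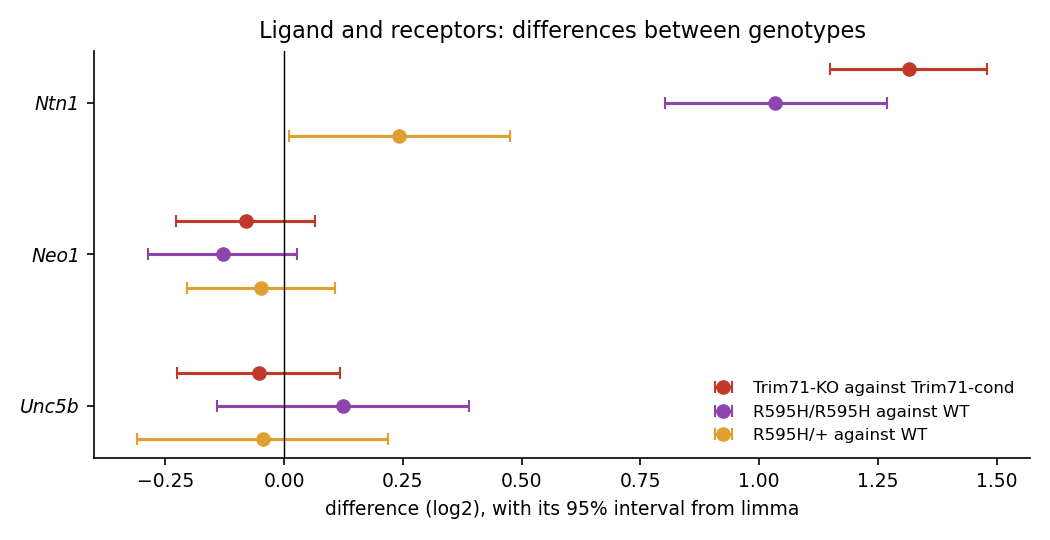
Differences in Ntn1, Neo1 and Unc5b between genotypes on the log2 scale, with 95% intervals from limma. The intervals of Ntn1 in Trim71-KO and R595H/R595H are a description, since the gene was chosen by those values. Both receptors have intervals that include 0 in all 3 comparisons drawn, and none of their differences exceeds 0.13 in size.

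The ligand stood higher against its receptors in both mutant genotypes. Levels were compared per kilobase of merged exons (6.277 kb for Ntn1, 8.716 kb for Neo1, 6.258 kb for Unc5b), on the log2 scale. In Trim71-cond, Neo1 was the most abundant at 3.84, followed by Ntn1 at 3.13 and Unc5b at 1.42. In Trim71-KO, Ntn1 led at 4.45, with Neo1 at 3.75 and Unc5b at 1.36. Ntn1 minus Neo1 went from -0.70 ± 0.08 (SD, n = 4) to 0.69 ± 0.11.

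Per kilobase, the order also turned in the clones. Ntn1 minus Neo1 per kilobase had a mean over clones (SD, n = 3) of -0.996 ± 0.06 for WT, -0.71 ± 0.22 for R595H/+ and 0.17 ± 0.10 for R595H/R595H. Only in Trim71-KO and R595H/R595H was Ntn1 above Neo1 on this scale. In R595H/R595H that order depended on the exon lengths. Without them Ntn1 (6.64) was below Neo1 (6.95) there, and was above it in Trim71-KO (7.10 against 6.88). Merged exons may differ from the length of the transcripts expressed. Ntn1 was above Unc5b in every genotype, by 1.72 in Trim71-cond and 3.08 in Trim71-KO. In the clones this gap was 2.51 for R595H/R595H, against 1.6 for WT and 1.89 for R595H/+. These ratios contain the Ntn1 values that chose the gene, and they are given as a description.

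Few other netrin ligands and receptors were present at measurable levels. Of the 5 other netrin genes listed, Ntn4 alone was in the table, at 0.91 to 1.18 in all groups, below the filter. Of 13 other receptor genes listed, 7 were in the table and 4 passed the filter. DCC and the UNC5 genes other than Unc5b were not among its symbols and are not analysed here. In Trim71-KO 3 of the 4 tested rose and 0 fell, with a median difference of 0.36 against 0.00 over all genes tested (-0.00278), and 9.24% of all genes were called higher. In R595H/R595H 1 of 4 rose, with a median of 0.21 (2.19% of all genes were called higher). The receptors Neo1 and Unc5b, tested and not called, are left out of these counts. The list was chosen with earlier results of these data known, so the counts are a description.

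Mcam, which encodes the adhesion molecule CD146 reported to bind netrin-1, was the receptor gene with the largest difference. It ranged from 6.44 to 6.91 in Trim71-cond and from 7.25 to 7.49 in Trim71-KO, without overlap. The rise was 0.64 ± 0.09 on the log2 scale (SE, adjusted p 5.12e-05 by limma), and 0.72 without code 1A. Its clone means were 6.94 ± 0.11 (SD, n = 3) for WT, 7.10 ± 0.18 for R595H/+ and 7.28 ± 0.05 for R595H/R595H. Its difference of 0.34 between R595H/R595H and WT did not pass (adjusted p 0.0627), and the difference between the deletion and homozygous effects was 0.30 (adjusted p 0.254).

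Itgb4 encodes integrin β4, which with integrin α6 forms a laminin receptor reported to bind netrin-1. It rose in Trim71-KO by 0.41 ± 0.08 (SE, adjusted p 0.0014 by limma), from 3.67 to 3.83 in Trim71-cond to 4.09 to 4.29, and by 0.47 without code 1A. In R595H/R595H it rose by 0.37 ± 0.09 (adjusted p 0.0412), a call lost without any of WT C16 (adjusted p 0.0652), C7 (0.131) or C5 (0.123), R595H/R595H C14 (0.197) or C24 (0.103), or R595H/+ C15 (0.0598), and with equal library totals, dates of 5/2 only or the Y-linked covariate. Its partner Itga6 was high in all groups, near 9.03 to 9.11, and differed by 0.08 in Trim71-KO (adjusted p 0.36) and 0.02 in R595H/R595H (0.939).

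Itga3, the gene of integrin α3, another partner reported for netrin-1, rose by 0.31 ± 0.09 (SE, adjusted p 0.0201 by limma) in Trim71-KO. The call was lost without Trim71-KO 2B (adjusted p 0.0695), Trim71-cond 3B (0.0757) or Trim71-KO 3B (0.0573). In R595H/R595H it differed by 0.07 (adjusted p 0.737).

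Among other partners of neogenin or UNC5B, 1 gene was called. Of 19 listed, 12 were in the table and 6 passed the filter. In Trim71-KO 1 of the 6 rose (9.24% of all genes did) and 0 fell, with a median of 0.04. In R595H/R595H none was called, where 3.42% of all genes were. The riser was Lrig2, a transmembrane protein that controls shedding of neogenin, by 0.20 ± 0.06 (SE, adjusted p 0.0372 by limma). Its adjusted p was 0.0904 with the replicate block, and the call was lost in 10 of 16 alternatives, among them leaving out code 1A (0.111), either 1A library (0.0635 for Trim71-cond, 0.0836 for Trim71-KO), Trim71-KO 3A (0.0936), either 2B library (0.104 and 0.0546) or Trim71-cond 3B (0.0518). Flrt2 and Flrt3, adhesion proteins that bind UNC5 receptors, differed by 0.14 and 0.03, and Cdon, an immunoglobulin-family receptor, by 0.05. Rgma and Rgmb, which encode ligands of neogenin, were below the filter.

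**Figure D4:**
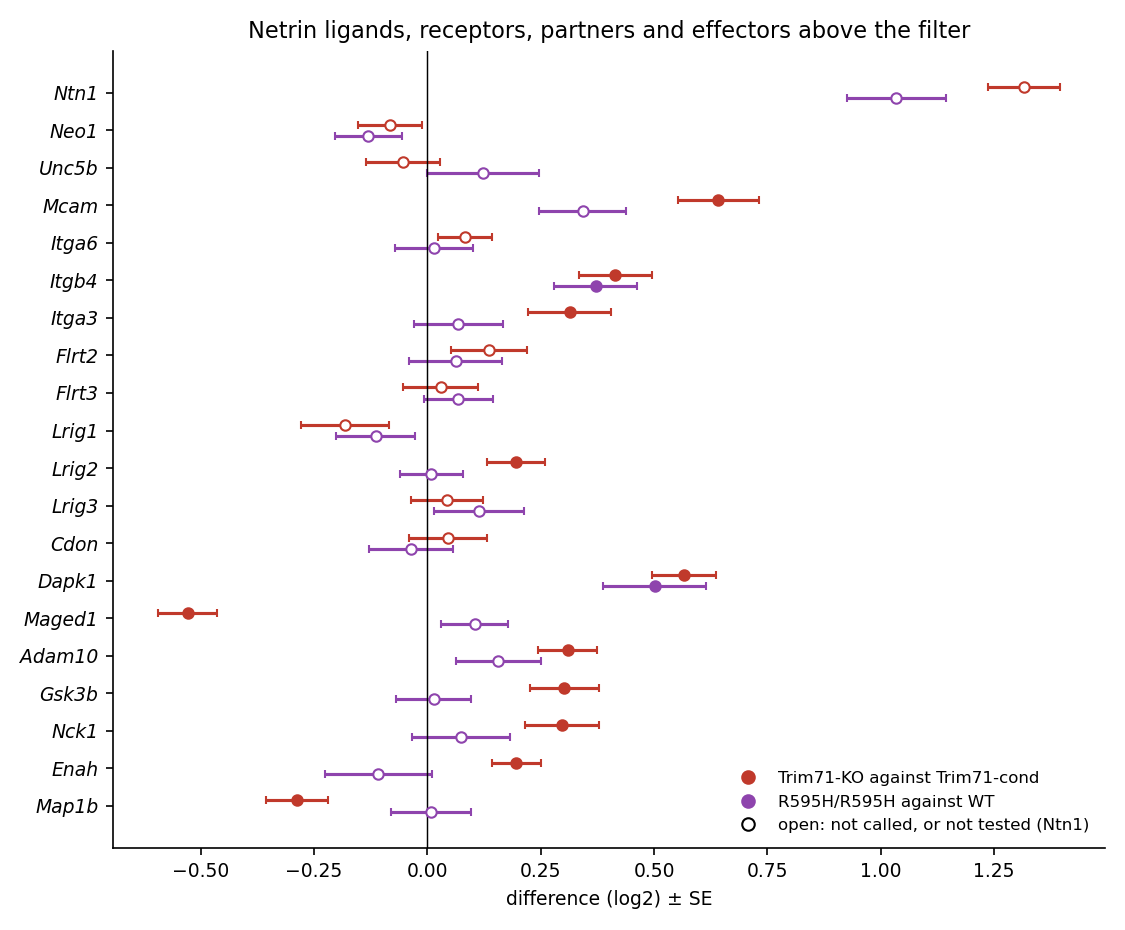
Differences (log2) with SE for netrin ligand, receptor and partner genes above the filter and for the effector and protease genes named in the text, in Trim71-KO against Trim71-cond and R595H/R595H against WT. Filled points passed an adjusted p under 0.05. Apart from Ntn1, Mcam, Dapk1 and Itgb4 are highest in Trim71-KO, and Maged1 lies at -0.53 there and at 0.10 in R595H/R595H.

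Genes for proteins that cleave these receptors or carry their signal were called in part. Of 11 proteases and cofactors of shedding and cleavage, 8 were tested. Adam10, a membrane protease that sheds many receptors, rose in Trim71-KO by 0.31 ± 0.07 (SE, adjusted p 0.00257 by limma), and no other was called, with a median of -0.11, where 18.6% of all genes were called. In R595H/R595H none of the 8 was called and the median was 0.04.

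Of 38 intracellular effectors listed, 35 were tested: 7 rose and 2 fell in Trim71-KO (median 0.09), and 1 rose and 0 fell in R595H/R595H (median 0.05). Over all genes, 9.24% were called higher and 9.37% lower in Trim71-KO, and 2.19% higher in R595H/R595H.

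Dapk1, the death-associated kinase through which UNC5 receptors can signal apoptosis, rose in both. Its range was 6.22 to 6.34 in Trim71-cond and 6.76 to 6.91 in Trim71-KO, a rise of 0.57 ± 0.07 (SE, adjusted p 1.49e-05 by limma), and of 0.59 without code 1A. Its clone range was 6.16 to 6.51 for WT, 6.31 to 6.52 for R595H/+ and 6.71 to 7.08 for R595H/R595H, which overlapped neither. That rise of 0.50 ± 0.11 had an adjusted p of 0.03, and the call was lost without WT C16 (0.0767), C7 (0.0611) or C5 (0.119), R595H/R595H C14 (0.0878) or C20 (0.0692), or R595H/+ C15 (0.0529), with equal library totals, or with the Y-linked covariate. R595H/+ differed from WT by 0.01 (adjusted p 0.99).

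Maged1, which encodes an adaptor (NRAGE) reported to bind an UNC5 receptor, went the other way. It fell by 0.53 on the log2 scale in Trim71-KO (SE 0.06, adjusted p 1.35e-05 by limma), from 7.75 to 7.94 down to 7.30 to 7.45, and by 0.60 without code 1A. In R595H/R595H it differed from WT by 0.10 (adjusted p 0.439), and the test of the difference between these effects gave -0.63 ± 0.10 (SE, adjusted p 0.00154). Map1b, a microtubule protein that acts downstream of netrin-1, fell by 0.29 in Trim71-KO (adjusted p 0.00647).

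The kinase gene Gsk3b rose by 0.30 (adjusted p 0.00875 by limma), the adaptor gene Nck1 by 0.30 (0.014) and the actin regulator gene Enah by 0.20 (0.0142) in Trim71-KO. The call of Nck1 was lost without Trim71-cond 1A (0.0544), Trim71-KO 1A (0.0571) or both (0.189, with a difference of 0.19). That of Enah was lost without Trim71-cond 2B (0.0582) and in eBayes without the trend and robust options (0.0622).

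Related guidance and signalling lists were mixed, beside 9.24% of all genes called higher and 9.37% called lower in Trim71-KO. All cells were grown with the 2i inhibitors, whose part in the levels of these lists was not tested. Of 5 Slit and Robo pathway genes tested, Srgap2, a GTPase-activating protein downstream of Robo receptors, rose by 0.25 in Trim71-KO (adjusted p 0.0128 by limma), and its relative Srgap1 fell by 0.24 (0.0414, and 0.0972 with the replicate block). Of 6 MAPK response genes, the feedback inhibitors Spred1 (0.36, adjusted p 0.00279) and Spry2 (0.23, adjusted p 0.0397, and 0.0669 with the block) rose and 0 fell. Of 8 Wnt response genes 0 rose and 3 fell: Notum fell by 0.35 (0.018), Tcf7l2 by 0.24 (0.0291, and 0.0729 with the block) and Axin2 by 0.27 (0.039, and 0.0652 with the block). The 3 lists had no called gene in R595H/R595H, where 3.42% of all genes were called, so the absence of calls says nothing particular about them. Several of these calls rested on single libraries. That of Notum was lost without Trim71-cond 2B (adjusted p 0.0679) or 3B (0.058) or Trim71-KO 3B (0.0723). That of Srgap1 was lost without either 1A or 3B library, Trim71-cond 3A or Trim71-KO 2B (0.0512 to 0.109), and that of Spry2 without either 3A library, Trim71-cond 2B or Trim71-KO 3B (0.0776 to 0.13). Tcf7l2 lost its call without either 1A or 3A library or Trim71-KO 2B (0.0522 to 0.0906), and Axin2 without either 1A or 3B library or Trim71-cond 3A (0.0511 to 0.126). Without both libraries of code 1A the adjusted p was 0.294 for Axin2, whose difference shrank to -0.18, 0.194 for Srgap1 and 0.139 for Tcf7l2.

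No tested gene around Ntn1 was called. Within 500 kb of Ntn1, 7 genes were in the table and 3 passed the filter, and neither Trim71-KO nor R595H/R595H gave a call among these. Over all genes, 18.6% were called in Trim71-KO and 3.42% in R595H/R595H, so no call among 3 genes says nothing particular about this region. Stx8, a syntaxin gene that ends 2.2 kb from Ntn1, differed by 0.14 ± 0.08 (SE, adjusted p 0.216 by limma) in Trim71-KO and 0.01 ± 0.10 (adjusted p 0.956) in R595H/R595H. Myh10, a nonmuscle myosin gene, differed by 0.02 and -0.07, and Ndel1, which encodes a dynein regulator, by -0.03 and -0.09. Usp43, Cfap52, Pik3r5 and Pik3r6 were below the filter.

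**Figure D5:**
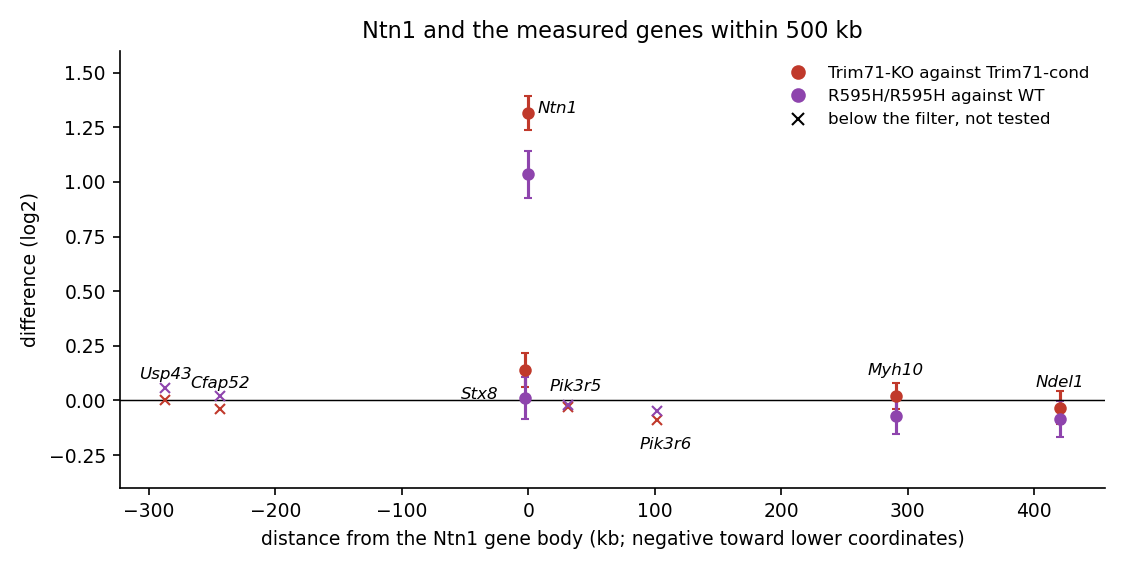
Difference (log2, with SE for tested genes) of Ntn1 and of the measured genes within 500 kb, by distance from the Ntn1 gene body in kb. Crosses mark genes below the filter. Ntn1 lies at 1.32 and 1.03, while all other points are at 0.14 or less.

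Around Neo1, 2 of 5 tested neighbours rose in Trim71-KO, where 9.24% of all genes did, and Neo1 did not pass. Rec114, a meiotic recombination gene, rose by 0.40 ± 0.10 (SE, adjusted p 0.00822 by limma), with groups that overlapped, and Arih1, a ubiquitin ligase gene, by 0.20 ± 0.06 (adjusted p 0.0167). The call of Arih1 was lost without Trim71-cond 2B (0.0582), without code 1A (0.061) and in eBayes without the trend and robust options (0.0501). Around Unc5b, 4 genes were tested and 1 fell (9.37% of all genes were called lower). Pald1, a phosphatase-domain gene, fell by 0.38 on the log2 scale in Trim71-KO (adjusted p 0.000805), and its difference in R595H/R595H was -0.25 (adjusted p 0.0907). Slc29a3, a nucleoside transporter gene 9.8 kb from Unc5b, differed by -0.04 and -0.18, and neither difference passed.

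The genes most like each member were ranked by Pearson's r over 17 units, the 8 conditional libraries and 9 clones, after centring within each system. The r-values describe shared patterns, in which the differences between genotypes and the shared library have a part, and for Ntn1 they follow the comparisons that chose it. Among 9530 genes, those with the highest r to Ntn1 were Agtpbp1, a tubulin-modifying enzyme (0.955), the pluripotency factor Nanog (0.955), Pid1 (0.951), Abcd3 (0.944) and Mob1b, of the Hippo pathway (0.939). Agtpbp1 differed by 0.51 in Trim71-KO and 0.35 in R595H/R595H, and Nanog by 0.39 and 0.23, which are smaller than the differences of Ntn1. The Nanog difference in R595H/R595H did not pass (adjusted p 0.0938 by limma).

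The closest patterns to Neo1 and Unc5b were looser and involved other genes. The highest r for Neo1 was that of Top3a, a topoisomerase (0.843), followed by Slx4ip, Atp6v1h, Actr3 and Polr3f, which had the fifth at 0.806. For Unc5b it was that of Tle3, a corepressor (0.855), followed by Chchd10, Hs6st1, Ror2 and Stk4, with the fifth at 0.793. Between the members, r was -0.55 for Ntn1 with Neo1 and -0.02 for Ntn1 with Unc5b.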

How the data were processed

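The deposited table holds 1 value for each of 13283 gene symbols in each of 20 libraries. Per the submitters' processing notes, the authors used CASAVA 1.8, STAR and DESeq2. No source used here names the build, annotation, counting step or transformation. The deposited values, recorded as a score, are on a log scale, from -0.65 to 18.0 with 1.58% below 0. Base 2 was inferred because DESeq2, named by the authors, uses it, so every fold rests on that inference, and such values may understate changes of low genes. Depth cannot be recovered from them. The test had allowed for linear values, but they were used as deposited.

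Genes whose mean reached 3.32, or 10 when back-transformed, were fitted in limma 3.58.1 (R 4.3.3) with lmFit and eBayes (trend, robust). Calls needed a p under 0.05 after Benjamini-Hochberg adjustment over all genes tested. The fits held 8 conditional libraries, 9 clones (libraries of a clone averaged), or both. The scripts were tested on simulated data.

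The number in each conditional code equals the day in the labels, so 3A and 3B of both groups share a day, and the pairing of 3A with 3A and 3B with 3B rests on the code alone. Correlations of deviations within pairs were -0.89 (1A), -0.09 (2B), -0.12 (3A) and 0.13 (3B). Fits with the code as a block, or with the day as a block (added after the data were seen), were alternatives, as were filters, scalings, moderation, dates, a Y-linked covariate and leaving out libraries or clones.

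Members and gene lists were chosen with earlier results of these data known. Named genes are the members, listed ligands, receptors and partners, up to 6 called genes of each other list, neighbours within 500 kb, the 5 most alike genes per member, Trim71 and the genes next to Ntn1 by its rule. Positions and UTRs are from GENCODE vM21 (GRCm38), and lengths from its merged exons.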

Additional observations from a re-analysis of the deposited data

Results flagged for a closer look

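In 5 of 150 groups of 4 libraries examined (3.33%), the gap between 1 library and the nearest other, divided by the range of the group, passed the 95% critical value of Dixon's test, which by its construction picks about 1 in 20 groups. None of these involved Ntn1, Neo1 or Unc5b. Maged1, the UNC5 adaptor gene, was at 7.447 in Trim71-KO 1A against 7.298 to 7.314 in the other deleted libraries. Spred1 was at 7.089 in Trim71-cond 1A against 6.926 to 6.934. Ntn4 was at 1.121 in Trim71-cond 1A against 0.943 to 0.9605, Cdh23 at 1.728 in Trim71-KO 3B against 1.955 to 1.993, and Actr3 at 7.857 in Trim71-cond 2B against 8.038 to 8.063.

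The deletion and the homozygous change differed in effect for 3 of the genes that the naming rule chose, by limma in the fit of both systems, where 1.42% of all genes were called. The effect on Trim71 itself differed by -2.09 on the log2 scale (adjusted p 8.07e-17), that on Maged1 by -0.633 (adjusted p 0.00154) and that on Spred1 by 0.513 (adjusted p 0.0333). Lefty1, looked up later, also differed, by -0.68 (adjusted p 0.0102).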

How the results depend on the processing

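The Ntn1 difference was 1.26 to 1.36 in Trim71-KO over 16 alternatives and 0.97 to 1.09 in R595H/R595H over 17. Neo1 stayed uncalled and negative in both. Unc5b stayed uncalled, but its sign turned in Trim71-KO without code 1A in both groups (0.00498, an alternative chosen after seeing the data), and in R595H/+ without WT C16 (0.0147), WT C5 (0.00193) or R595H/+ C21 (0.0545), the lowest value there being -0.163 without R595H/+ C23. With the replicate block the Ntn1 difference was 1.32, that of Neo1 -0.08 and that of Unc5b -0.05, 1392 genes were called in Trim71-KO (1399 with the labelled day as the block), and among named genes either block changed no call beyond those of Lrig2, Srgap1, Spry2, Tcf7l2 and Axin2. The 328 genes called in R595H/R595H against WT became 157 with equal library totals, 191 with dates of 5/2 only, 134 with the Y-linked covariate, and, with a clone left out, between 67 (C14 of R595H/R595H) and 541 (C21 of R595H/+). The 74 called in R595H/R595H against R595H/+ became 116 with no filter, 19 with equal totals, 213 with the clone as a random effect, 3 with the Y-linked covariate and 7 (without C14) to 80 when clones were left out. The 136 called for the difference of effects became 83 with dates of 5/2 only and 40 (without WT C7) to 225 (without R595H/+ C21). The gene Lars2, outside the naming rule, made up 0.334% (C20) to 13.2% (C24) of the summed back-transformed values in R595H/R595H libraries. In WT libraries it made up 1.11% to 6.73%. Its part in these shifts was not tested, nor were other causes. The stricter filter at 5 removed Unc5b, and other pseudocounts were not run because the values are already logged. Unknown depth limits what can be said of low genes such as Unc5b.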

Other observations

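Some values were looked up after the genes most alike were seen. The strongest inverse patterns to Ntn1 over the 17 units were those of Lefty1, an antagonist of Nodal signalling (r = -0.946), and Pald1 (r = -0.936), the neighbour of Unc5b. Lefty1 fell by 1.24 on the log2 scale in Trim71-KO (adjusted p 1.21e-08 by limma) and by 0.56 in R595H/R595H (adjusted p 0.0111). For Neo1 the strongest inverse pattern was that of Rpsa (r = -0.902), which encodes a ribosomal protein also known as a laminin receptor. Rpsa differed by 0.16 in Trim71-KO (adjusted p 0.0573 by limma) and 0.21 in R595H/R595H (adjusted p 0.134), neither of which passed.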
